A study of Mus musculus with 2 samples.

Results

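The genes described here encode receptors for acetylcholine, serotonin, dopamine, noradrenaline, histamine and adenosine. They were taken from the expression tables by symbol alone, as every gene whose name starts with Htr, Drd, Adra, Adrb, Chrm, Chrn, Hrh or Adora and its subtype, without using any measured value. This gave 57 of the 20373 listed genes. RNA had been sequenced from 2 cell populations of the mouse cortex at embryonic day 15.5, with 1 library each. All embryos came from crosses of heterozygous Nestin-GFP mice with homozygous DCX-mRFP mice and carried both reporters. Cells with green fluorescence were sorted as neural progenitor cells (NPCs), and double-coloured cells as neurons. Both labels thus rest on reporter fluorescence, and how many embryos were pooled is not given in the sources used here.

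Acetylcholine acts on nicotinic receptors, which are cation channels built from 5 subunits, and on muscarinic receptors, which couple to G proteins. The monoamine and adenosine receptors couple to G proteins as well, except for the serotonin-gated channel of the Htr3 genes. Receptors of the Gs class raise cyclic AMP, those of the Gi/o class lower it, and those of the Gq class release calcium from internal stores. In the mature cortex the monoamines and acetylcholine reach the tissue mainly through axons of neurons in other brain regions, while adenosine is formed locally from ATP. Where these ligands came from at the stage sampled was not measured here.

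The libraries held 26346226 reads (NPC) and 23312054 reads (neuron) on listed genes, and the receptor genes took 0.0234% and 0.0307% of them. Levels are given in CPM, counts per 1000000 on a scale common to both libraries, on which 26.97 reads (NPC) or 22.78 reads (neuron) make 1 CPM. All 10 progenitor markers were higher in the NPC library, among them Eomes at 1013 against 353.6 CPM. All 10 markers of young neurons were higher in the neuron library. Dcx, whose regulatory sequences drive the red reporter, was nevertheless abundant in both, at 2522 CPM (NPC) and 3294 CPM (neuron). Summed levels of other cell types differed between the libraries as well. The 10 microglia markers summed to 31.4 CPM (NPC) and 136.6 CPM (neuron), and the 6 Cajal-Retzius markers to 100.1 and 460.0. The 8 pericyte markers summed to 205.5 and 13.3 CPM, the 8 endothelial markers to 21.8 and 3.34, and the 6 oligodendrocyte lineage markers to 82.7 and 2.98. Sums were 25.6 and 1.93 CPM for meningeal fibroblasts, 123.8 and 63.8 for subplate, 20.8 and 38.8 for striatal neurons (7.01 and 5.79 without Ppp1r1b), and under 3 CPM in each library for choroid plexus, red blood cells and skeletal muscle. With 1 library a group there is no replicate and no p-value. Intervals cover counting error only, and fewer cells of a type cannot be told apart from less RNA per cell.

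Most of these receptor genes had few reads. Of the 57 genes, 17 reached 1 CPM in at least 1 library, 18 lay between that level and 3 reads, and 22 had 3 reads or fewer in each library, 7 of them with no read at all. These are 29.8%, 31.6%, 38.6% and 12.3% of the receptor genes, against 62.3%, 9.10%, 28.6% and 20.9% of all genes. Receptor genes were thus mostly low, with a smaller share than all genes having no read. A count of 0 allows up to 3 reads, or 0.111 CPM (NPC) and 0.132 CPM (neuron). Receptor reads were concentrated in a few genes. Chrnb2, Chrna7 and Adora1 together held 83.1% of the receptor CPM in NPCs and 82.5% in neurons, and Chrnb2 alone held 72.3% and 63.4%.

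Sequences upstream of the start sites are shown for 5 nicotinic subunit genes, from the gene with the most reads to one with hardly any. A promoter sequence from RefSeq (GRCm38.p6) was matched for 43 of the 57 genes. Where a gene had several, the one with the highest ratio of observed to expected CpG was taken. Each line gives the 250 bases before the start, on the gene's own strand, with CpG dinucleotides in capitals. Chrnb2 (chr3:89764633-89764882, minus strand) was at 164.8 and 198.9 CPM, and Chrna7 (chr7:63212527-63212776, minus strand) was at 14.8 and 34.2 CPM. Chrna5 (chr9:54981238-54981487, plus strand) and Chrna3 (chr9:55026563-55026812, minus strand) are neighbours on chromosome 9. Chrng (chr1:87205561-87205810, plus strand), the fetal subunit of the muscle receptor, had 0 and 2 reads.
Chrnb2: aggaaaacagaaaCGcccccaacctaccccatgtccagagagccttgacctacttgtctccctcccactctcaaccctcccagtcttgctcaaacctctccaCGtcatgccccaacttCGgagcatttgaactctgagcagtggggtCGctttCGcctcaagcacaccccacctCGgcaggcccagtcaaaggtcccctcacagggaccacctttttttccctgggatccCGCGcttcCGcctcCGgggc
Chrna7: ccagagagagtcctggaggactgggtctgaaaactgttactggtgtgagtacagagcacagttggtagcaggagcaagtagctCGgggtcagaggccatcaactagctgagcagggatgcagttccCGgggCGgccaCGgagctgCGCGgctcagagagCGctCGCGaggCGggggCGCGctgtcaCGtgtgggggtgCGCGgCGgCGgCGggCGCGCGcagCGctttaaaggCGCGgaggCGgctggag
Chrna5: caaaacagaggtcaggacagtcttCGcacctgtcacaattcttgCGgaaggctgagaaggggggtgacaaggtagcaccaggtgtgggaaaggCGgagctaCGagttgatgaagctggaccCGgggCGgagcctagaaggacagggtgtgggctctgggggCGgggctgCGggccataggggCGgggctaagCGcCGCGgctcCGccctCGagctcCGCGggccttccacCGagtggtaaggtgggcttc
Chrna3: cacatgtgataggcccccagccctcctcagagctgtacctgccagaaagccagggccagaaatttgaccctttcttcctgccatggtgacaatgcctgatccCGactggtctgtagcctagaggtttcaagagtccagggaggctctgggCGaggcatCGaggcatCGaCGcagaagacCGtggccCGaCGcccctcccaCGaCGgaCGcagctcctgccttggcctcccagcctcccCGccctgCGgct
Chrng: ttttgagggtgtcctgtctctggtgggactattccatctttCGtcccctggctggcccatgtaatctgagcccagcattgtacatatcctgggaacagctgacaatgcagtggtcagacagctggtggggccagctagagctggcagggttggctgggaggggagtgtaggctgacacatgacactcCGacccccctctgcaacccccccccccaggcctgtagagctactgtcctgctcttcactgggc

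These stretches hold 10 CpG dinucleotides in Chrnb2, 25 in Chrna7, 17 in Chrna5, 13 in Chrna3 and 2 in Chrng. Over the 43 genes the median count was lowest in the lowest level class, and the 2 classes above it lay close together. The 14 genes at 1 CPM or more had a median of 14.5 CpG (4 to 42), the 16 between had 12.5 (0 to 41), and the 13 at 3 reads or fewer had 5 (1 to 35). Over all genes with a promoter the corresponding medians were 17, 6 and 2, the same order. In the 2 lower classes receptor genes had higher medians than all genes, 12.5 against 6 and 5 against 2. The ratio of observed to expected CpG had medians of 0.610, 0.653 and 0.279 in the receptor classes (all genes: 0.762, 0.379 and 0.178). By that ratio the highest receptor class did not exceed the middle one. Single receptor genes did not follow the order of the counts. Chrnb2, the receptor gene with the most reads, had 10 CpG, fewer than the median of its class, and no GC box. Drd5, a Gs-coupled dopamine receptor gene, had 35 CpG and 0 and 1 reads. Htr2a, a Gq-coupled serotonin receptor gene, had 4 CpG and reached 1.10 CPM in neurons. The GC box GGGCGG, searched on both strands, was found in 9 of 14, 10 of 16 and 4 of 13 promoters of the 3 classes (all genes: 63.0%, 38.5% and 13.3%). The cyclic AMP response element TGACGTCA was in 0 of the 43 and in 2.11% of all promoters. It reads alike on both strands and cannot overlap a GC box.

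**Figure D1:**
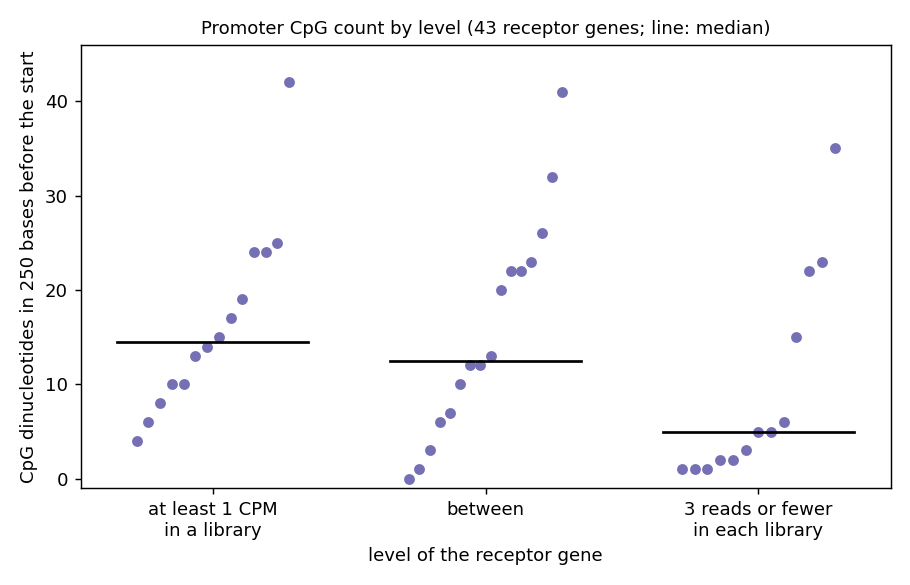
Each point is the number of CpG dinucleotides in the 250 bases before the start of a receptor gene (vertical axis), with genes grouped by level (horizontal axis) and spread sideways by rank within a group. The lines are medians, 14.5, 12.5 and 5, and the range within each group is wide.

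Where the libraries differed by 2-fold with 1 CPM added to both values, the receptor genes were higher in neurons. Of the 17 genes at 1 CPM or more, 4 passed 2-fold towards the neuron library, where 3.85% of all 12693 genes at that level were, and 0 in the NPC library, where 6.73% were. These were Chrm1, Adra2c, Adora1 and Chrna7. Over the 17 genes the log2 ratio, neuron to NPC, had a median of 0.27, against −0.0049 over all genes at that level, and 11 of the 17 were higher in neurons. The added value understates differences of low genes, so the ratio without it was also taken for genes with at least 10 reads over both libraries. By that rule 10 of 30 receptor genes passed 2-fold towards neurons (all genes: 7.19% of 13992) and 5 in NPCs (all genes: 10.3%). The counting interval of the ratio left out 1 for 6 of these 10 and 4 of these 5. Low genes pass 2-fold more often, and among genes with 10 to 1000 reads 12.6% were higher in neurons and 18.9% in NPCs, against 9 and 5 of 28 receptor genes. Folds below are ratios without the added value, each with its exact 95% counting interval.

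**Figure D2:**
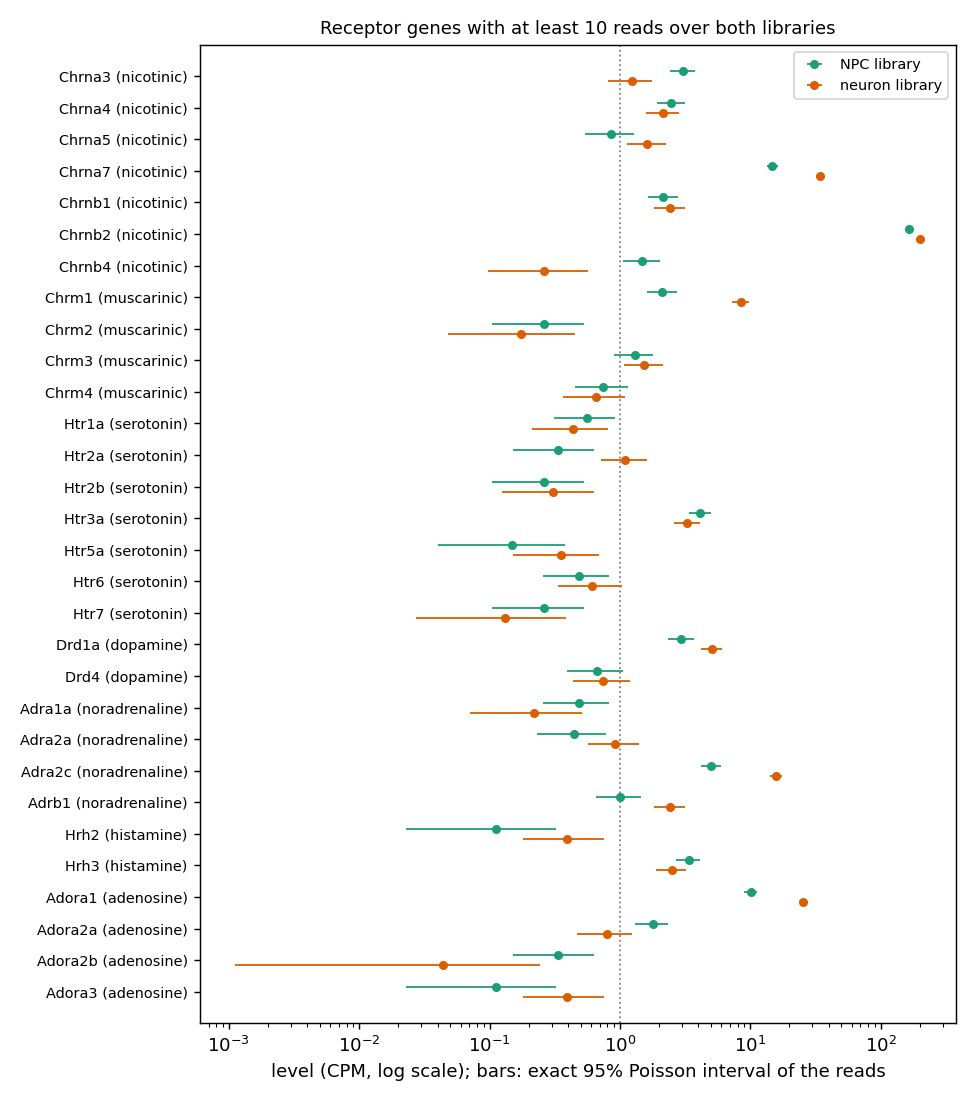
Levels in CPM (horizontal log axis) of the 30 receptor genes with at least 10 reads over both libraries, in the NPC (green) and the neuron library (orange), with exact 95% Poisson intervals of the reads. The dotted line is 1 CPM, and Chrnb2, Chrna7, Adora1 and Adra2c lie farthest to the right.

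Chrnb2, the beta subunit of the most common nicotinic receptor of the brain, had the most reads. It had 4445 reads in NPCs and 4531 in neurons (164.8 and 198.9 CPM), 1.21-fold higher in neurons (1.16 to 1.26). Its value cannot be assigned to it alone. In GENCODE M21 its exons share 1365 bases, 16.4% of its exon length, with exons of Adar on the opposite strand, which encodes an RNA-editing deaminase. Adar had 4166 and 4303 reads and a ratio of 1.22 (1.17 to 1.28), so both genes had nearly the same counts and the same difference. Whether reads were counted by strand is not given in the sources used here, and without strand the reads of the shared stretch cannot be told apart. In all, 10 of the 57 genes share exon bases with another annotated gene, 2 of them with one listed in the tables. Without Chrnb2 the receptor genes summed to 63.3 CPM in NPCs and 114.8 in neurons, and with it to 228.1 and 313.7.

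Among the alpha subunits that can pair with Chrnb2, Chrna4 had 67 and 49 reads (2.48 and 2.15 CPM), and a difference between the libraries was not detectable beyond counting error (neuron over NPC 0.866, 0.586 to 1.27). Chrna7, which forms a calcium-permeable channel on its own, had 399 and 779 reads (14.8 and 34.2 CPM), 2.31-fold higher in neurons (2.05 to 2.61). Per kilobase of exon, Chrna7 reached 7.12 CPM (NPC) and 16.5 CPM (neuron), and Chrna4 0.522 and 0.452. The level of Chrna7 per kilobase was thus 13.6 times that of Chrna4 in NPCs (10.5 to 17.9) and 36.4 times in neurons (27.2 to 49.6).

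The 3 nicotinic genes clustered on chromosome 9 went in different directions. Chrna3 and Chrnb4, subunits best known from autonomic ganglia and the habenula, were higher in the NPC library. Chrna3 had 82 and 28 reads (3.04 and 1.23 CPM), 2.47-fold higher in NPCs (1.59 to 3.95). Chrnb4 had 40 and 6 reads (1.48 and 0.263 CPM), 5.63-fold higher in NPCs (2.37 to 16.3). Chrna5, an accessory subunit that assembles with the other two, had 23 and 37 reads (0.853 and 1.62 CPM), with a neuron over NPC ratio of 1.905 (1.10 to 3.36). Per kilobase of exon, Chrna3 was at 2.03 times the level of Chrna5 in NPCs (1.26 to 3.37) and at 0.430 times in neurons (0.254 to 0.723), so their order turned between the libraries. With 1 CPM added, Chrna3 and Chrnb4 stayed within 2-fold, at log2 ratios of −0.86 and −0.97. Their upstream stretches held 13 and 8 CpG, against 17 for Chrna5. In the NPC library 6 of 8 pericyte, 8 of 8 endothelial and 6 of 6 oligodendrocyte lineage markers were also higher, as were all 10 progenitor markers. The part of these cell types in the differences was not tested.

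Subunits of the muscle receptor were near 0 apart from the beta subunit. Chrnb1 had 58 and 55 reads (2.15 and 2.41 CPM), a ratio of 1.12 (0.762 to 1.65). Chrna1, Chrne and Chrng had at most 2 reads in a library and Chrnd had none. Of the 6 skeletal muscle markers, Myog had no read in either library and Myod1 had 0 and 2 reads. Acta1, the most abundant of them, had 31 and 47 reads (1.15 and 2.06 CPM), a level near that of Chrnb1. Of the other nicotinic subunits, Chrna2, Chrna6, Chrna9 and Chrnb3 had no read, and Chrna10 had 0 and 1. Altogether 7 of 16 nicotinic genes reached 1 CPM, and with 1 CPM added 1 of them passed 2-fold, towards neurons.

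The 5 muscarinic genes differed among themselves. Chrm1, a Gq-coupled receptor of cortical projection neurons, had the largest log2 ratio of the 17 genes (1.60). It had 57 reads in NPCs and 192 in neurons (2.11 and 8.43 CPM), 3.99-fold higher in neurons (2.95 to 5.46). Chrm3, which couples to Gq as well, had 35 and 35 reads (1.30 and 1.54 CPM, ratio 1.18, 0.720 to 1.95). The Gi/o-coupled Chrm4 had 20 and 15 reads (0.888, 0.423 to 1.82) and Chrm2 had 7 and 4 (0.677, 0.145 to 2.66). For these 3 genes a difference was not detectable at this depth, and Chrm5 had 1 and 2 reads. Per kilobase, Chrm1 and Chrm3 did not differ beyond counting error in NPCs (1.13 times, 0.727 to 1.77), while in neurons Chrm1 was at 3.79 times the level of Chrm3 (2.64 to 5.61). Chrm1 shares 329 exon bases with an annotated RNA gene on the opposite strand that is not listed in the tables.

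**Figure D3:**
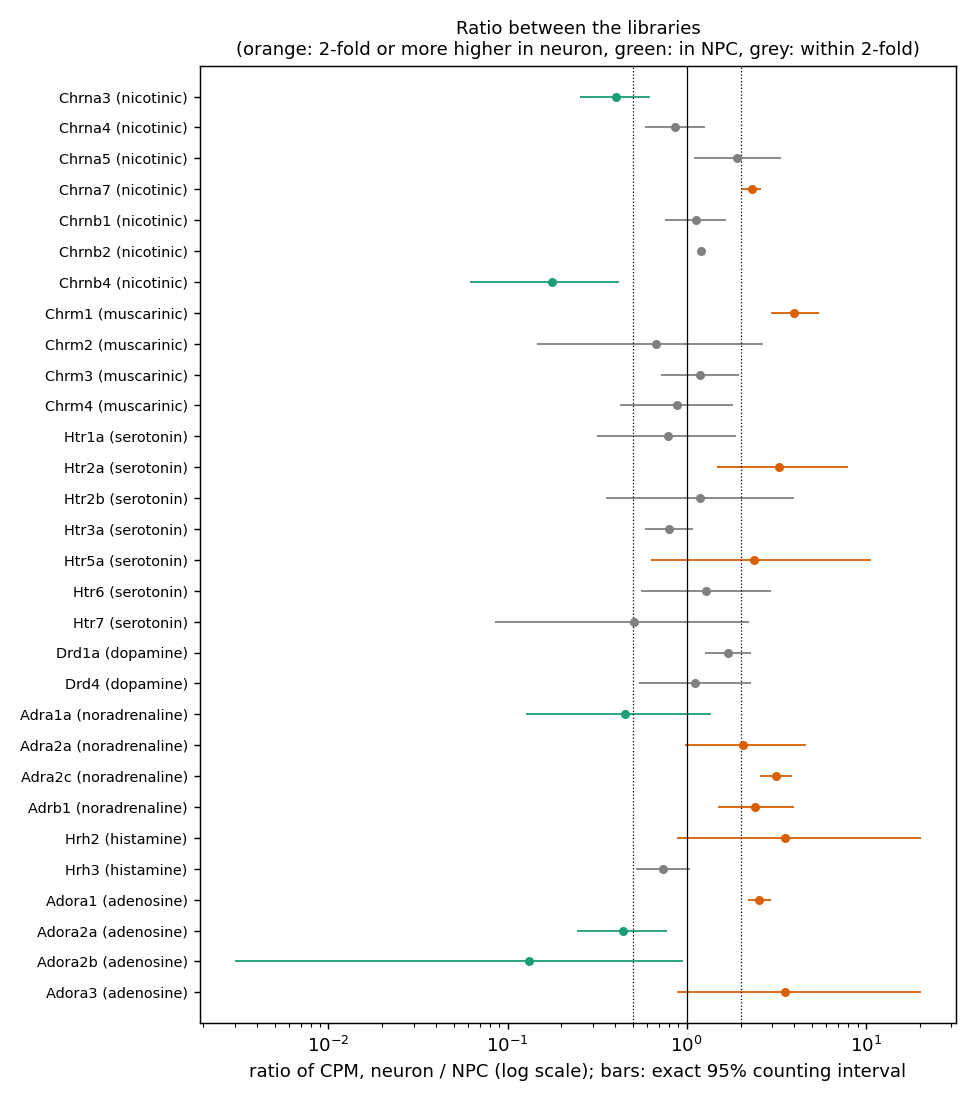
Ratio of neuron to NPC level (horizontal log axis) with its exact 95% counting interval for the 30 receptor genes with at least 10 reads. Dotted lines mark 2-fold, orange and green points lie past them towards neurons and NPCs, and Chrm1, Adra2c, Adora1 and Chrna7 have intervals wholly above 2.

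Of the 9 noradrenaline receptor genes 4 had at least 10 reads. By the ratio alone 3 of these passed 2-fold towards neurons and 1 towards NPCs. Over all genes 7.19% and 10.3% did, and among genes with 10 to 1000 reads 12.6% and 18.9%. The intervals left out 1 for Adra2c and Adrb1 only. Adra2c, a Gi/o-coupled receptor, had 135 reads in NPCs and 358 in neurons (5.005 and 15.7 CPM), 3.14-fold higher in neurons (2.57 to 3.86). Adrb1, a Gs-coupled receptor, had 27 and 55 reads (1.001 and 2.41 CPM), 2.41-fold higher in neurons (1.496 to 3.98), and with 1 CPM added it stayed within 2-fold. The relative Adra2a had 12 and 21 reads (2.07-fold, 0.974 to 4.62), and Adra1a, coupled to Gq, had 13 and 5 reads (2.20-fold higher in NPCs, 0.735 to 7.87). The intervals of both include 1. Adra2c was the main alpha-2 gene in both libraries, at 15.8 times (8.74 to 31.3) and 23.9 times (15.4 to 39.1) the level of Adra2a per kilobase of exon. Adra1b, Adra2b and Adrb3 had at most 3 reads in a library, and Adra1d had none.

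Adenosine receptors divided by subtype. Adora1, the Gi/o-coupled receptor with high affinity for adenosine, had 271 reads in NPCs and 583 in neurons (10.05 and 25.6 CPM), 2.55-fold higher in neurons (2.20 to 2.95). Adora2a, a Gs-coupled receptor typical of striatal neurons and blood vessels, had 48 and 18 reads (1.78 and 0.790 CPM), 2.25-fold higher in NPCs (1.29 to 4.11). Adora2b, the Gs-coupled receptor with low affinity, had 9 and 1 reads (NPC over neuron 7.60, 1.05 to 333). Per kilobase, Adora1 was at 2.53 times the level of Adora2a in NPCs (1.86 to 3.52) and 14.5 times in neurons (9.11 to 24.7). Adora3, which microglia and mast cells express, had 3 and 9 reads (3.55-fold higher in neurons, 0.886 to 20.4).

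Some of these adenosine values go with other signals. Adora1 shares 1162 exon bases with Mybph on the opposite strand, a muscle myosin-binding protein gene listed at 35 and 65 reads (ratio 2.20, 1.44 to 3.42). Mybph reads thus went the same way at a lower level, and reads of the shared stretch cannot be told apart without strand. Endothelial and pericyte markers were higher in NPCs in 14 of 16 cases, as Adora2a and Adora2b were. So were progenitor (10 of 10), oligodendrocyte lineage (6 of 6) and, at 1 CPM or more, meningeal fibroblast markers (4 of 4). All 10 microglia markers were higher in neurons, as was the ratio of Adora3, though its interval (0.886 to 20.4) includes 1. Cajal-Retzius (6 of 6) and young neuron markers (10 of 10) were higher in neurons as well. The part of these cell types in the adenosine receptor values was not tested. The 7 striatal markers went both ways. With at least 10 reads over both libraries, 2 of 6 passed 2-fold towards neurons and 2 towards NPCs. Ppp1r1b was at 13.8 and 33.0 CPM and makes up most of their sum, while Ebf1 had 61 and 21 reads (2.45-fold higher in NPCs, 1.47 to 4.24) and Tac1 had 1 read in each library.

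Dopamine receptors were led by Drd1a, the Gs-coupled D1 receptor gene. It had 80 reads in NPCs and 115 in neurons (2.97 and 5.05 CPM), 1.70-fold higher in neurons (1.27 to 2.29) and within 2-fold. Drd4, coupled to Gi/o, had 18 and 17 reads (ratio 1.12, 0.541 to 2.30). Drd3 had 7 and 1 reads (5.91-fold higher in NPCs, 0.760 to 266). Drd2, the main Gi/o-coupled dopamine receptor gene of the striatum, had 1 read in each library, and Drd5 had 0 and 1. The dopamine receptor reads of these libraries were thus mostly those of Drd1a.

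Serotonin receptors made up the largest family after the nicotinic one, yet 2 of its 14 genes reached 1 CPM. Htr3a, a subunit of the serotonin-gated channel that marks a class of cortical interneurons, had 111 reads in NPCs and 75 in neurons (4.12 and 3.29 CPM, neuron over NPC 0.800, 0.589 to 1.08). No difference was detectable beyond counting error, and its partner subunit Htr3b had 0 and 3 reads. Of the 8 interneuron markers, 0 were 2-fold apart by either rule and 7 were higher in NPCs, with Dlx1 at 105.3 and 70.4 CPM. Htr2a had 9 and 25 reads (0.334 and 1.10 CPM), 3.29-fold higher in neurons (1.48 to 8.01). With 1 CPM added its log2 ratio was 0.65. Per kilobase, Htr3a was at 33.2 times the level of Htr2a in NPCs (16.9 to 74.5) and 8.07 times in neurons (5.07 to 13.3).

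The remaining serotonin genes were low. Htr1a, a Gi/o-coupled autoreceptor, had 15 and 10 reads (0.789, 0.317 to 1.88), and Htr6, a Gs-coupled receptor, had 13 and 14 (1.28, 0.556 to 2.95). Htr2b had 7 reads in each library and Htr7 had 7 and 3. Htr5a had 4 and 8 reads (2.37-fold higher in neurons, 0.634 to 10.7). None of these 5 intervals left out 1. Htr1d had 6 and 1 reads, Htr1f 4 and 5, and Htr5b 4 and 0. Htr1b, Htr2c and Htr4 had at most 2 reads in a library. Choroid plexus, where Htr2c is abundant later in life, was near 0, with Ttr at 0.556 CPM in NPCs and no read in neurons.

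Histamine receptors were represented by Hrh3, a Gi/o-coupled receptor found on nerve terminals. It had 91 reads in NPCs and 57 in neurons (3.37 and 2.50 CPM, ratio 0.742, 0.523 to 1.04), with an interval that includes 1. Hrh2, coupled to Gs, had 3 and 9 reads (3.55-fold higher in neurons, 0.886 to 20.4). Hrh1, coupled to Gq, had 7 and 1 (5.91-fold higher in NPCs, 0.760 to 266). Hrh4, a receptor of blood cells, had no read.

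Grouped by signalling class, the Gi/o-coupled genes summed to 22.4 CPM in NPCs and 47.8 in neurons, and the Gq-coupled genes to 4.86 and 11.8. The sums were 7.12 and 9.61 for the Gs-coupled genes. Each sum is led by 1 or 2 genes, Adora1 and Adra2c for Gi/o, Chrm1 for Gq and Drd1a for Gs. At 1 CPM or more there were 3 of 18 Gi/o genes (2 at least 2-fold higher in neurons with 1 CPM added), 3 of 10 Gq genes (1) and 3 of 11 Gs genes (0). The channel genes had 8 of 18 at that level, 1 of them past 2-fold towards neurons, and their log2 ratios had a median of −0.014. By the rule without an added value, 5 of 10 Gi/o genes passed 2-fold towards neurons and 0 towards NPCs. The 7 Gs genes had 2 on each side. Of 5 Gq genes 2 passed towards neurons and 1 towards NPCs, and of 8 channel genes 1 and 2 did. Over all genes 7.19% passed towards neurons and 10.3% towards NPCs. Among genes with 10 to 1000 reads 12.6% and 18.9% did. The intervals left out 1 for 2 of the 5 Gi/o genes, Adora1 and Adra2c, and included it for Adora3, Adra2a and Htr5a. Of the Gs genes, 1 of the 2 towards neurons and both towards NPCs had intervals without 1. The 2 Gq genes towards neurons, Chrm1 and Htr2a, had intervals without 1, and the Gq gene towards NPCs had one with 1. All channel genes past 2-fold had intervals without 1. The difference between the classes was not tested.

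The machinery around the receptors was described by 7 lists of genes. Their measured genes are those at 1 CPM or more, and counts past 2-fold are given with 1 CPM added and then by the ratio without it among genes with at least 10 reads. For comparison with every list, 3.85% of all genes passed 2-fold towards neurons and 6.73% towards NPCs with 1 CPM added. By the ratio alone 7.19% and 10.3% did, and among genes with 10 to 1000 reads 12.6% and 18.9%. Few of the genes that make or carry acetylcholine and the monoamines were measured. Of 7 acetylcholine genes 2 reached 1 CPM, 1 of them past 2-fold towards neurons. By the ratio alone 1 of 3 passed 2-fold towards neurons and 2 towards NPCs. Ache, the esterase that ends the signal, stood at 0.334 and 1.67 CPM (neuron over NPC 4.999, 2.38 to 11.8). Bche, a related esterase, stood at 1.001 and 0.176 CPM (NPC over neuron 5.70, 1.99 to 22.4). The synthesis gene Chat, named after its value was seen, had no read. Of 19 monoamine genes 5 reached 1 CPM and 0 were 2-fold apart with 1 CPM added, while by the ratio alone 3 of 10 passed 2-fold towards NPCs. Slc29a4, a low-affinity monoamine transporter of the plasma membrane, was at 97.5 and 150.2 CPM (neuron over NPC 1.54, 1.46 to 1.62). Slc18a2, which loads monoamines into vesicles, was at 9.75 and 5.27 CPM (NPC over neuron 1.85, 1.49 to 2.32).

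Adenosine metabolism was better represented, with 9 of 13 genes at 1 CPM or more, and with 1 CPM added 0 passed 2-fold towards neurons and 1 towards NPCs. By the ratio alone 3 of 12 passed towards neurons and 3 towards NPCs. The 1 gene past 2-fold by both rules was Alpl, an alkaline phosphatase that can form adenosine outside cells, at 4.37 and 0.878 CPM (4.98-fold, 3.09 to 8.45). Pnp, a purine phosphorylase, was at 14.0 and 6.76 CPM (NPC over neuron 2.07, 1.71 to 2.51), and the ectonucleotidase gene Entpd3 at 0.371 and 1.40 CPM (neuron over NPC 3.79, 1.82 to 8.64). The transporter gene Slc29a1 was the most abundant, at 29.5 and 35.6 CPM (1.205-fold, 1.09 to 1.33).

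Proteins that assemble and modulate nicotinic receptors went both ways around 0. Of 10 measured members, 2 passed 2-fold towards neurons with 1 CPM added and 0 towards NPCs, and by the ratio alone 3 of 11 and 1 did. With 1 CPM added the median of the log2 ratios was −0.0098. Ly6h, a membrane-anchored protein that binds nicotinic receptors, was at 26.2 and 82.4 CPM (3.14-fold, 2.88 to 3.43). Dok7, an adaptor of the neuromuscular junction, was at 2.60 and 8.65 CPM (3.33-fold, 2.52 to 4.44), and Lypd6b at 3.003 and 6.85 CPM (2.28-fold, 1.73 to 3.02). Agrn, which clusters the muscle receptor, was the most abundant at 640.5 and 609.6 CPM.

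Signalling partners were far more abundant than the receptors. Of 12 measured G protein alpha genes, 1 was at least 2-fold higher in neurons with 1 CPM added, and by the ratio alone 2 of 13 were, with 1 in NPCs. The first was Gnal, the Gs-type subunit of olfactory and striatal neurons, at 41.1 and 83.9 CPM (2.04-fold, 1.89 to 2.20). Gnao1, with the highest level of the list in neurons, was at 548.0 and 662.1 CPM (1.21-fold, 1.18 to 1.24). Gnaz was 1.77-fold higher in neurons (1.49 to 2.12) and Gna14 3.07-fold higher in NPCs (1.55 to 6.64), at 1.48 and 0.483 CPM. The effector list had the largest median of the 7, a log2 ratio of 0.49, against −0.0049 over all genes at 1 CPM or more. With 1 CPM added, 5 of its 19 measured genes passed 2-fold towards neurons and 0 towards NPCs (all genes: 3.85% and 6.73%). By the ratio alone 6 of 20 and 0 did (all genes: 7.19% and 10.3%).

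Among those effectors, the adenylyl cyclase genes Adcy2 (2.97 and 9.31 CPM) and Adcy1 (40.4 and 92.1 CPM) had neuron over NPC ratios of 3.14 (2.42 to 4.11) and 2.28 (2.12 to 2.46). Ppp1r1b, a phosphatase inhibitor controlled by dopamine and cyclic AMP, was 2.40-fold higher in neurons (2.11 to 2.72). It also stands in the list of striatal markers. Prkacb, a catalytic subunit of protein kinase A, was the most abundant at 213.7 and 261.7 CPM. Receptor kinases, arrestins and RGS proteins, which end the signal, had 15 measured genes and 0 at least 2-fold apart with 1 CPM added. By the ratio alone 1 passed, Rgs7, at 1.41 and 3.20 CPM (2.27-fold, 1.52 to 3.46). Arrb1 was at 118.7 and 182.4 CPM (1.54-fold, 1.47 to 1.61). Rgs12, at 184.5 and 178.5 CPM, had the highest level of the list in NPCs.

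**Figure D4:**
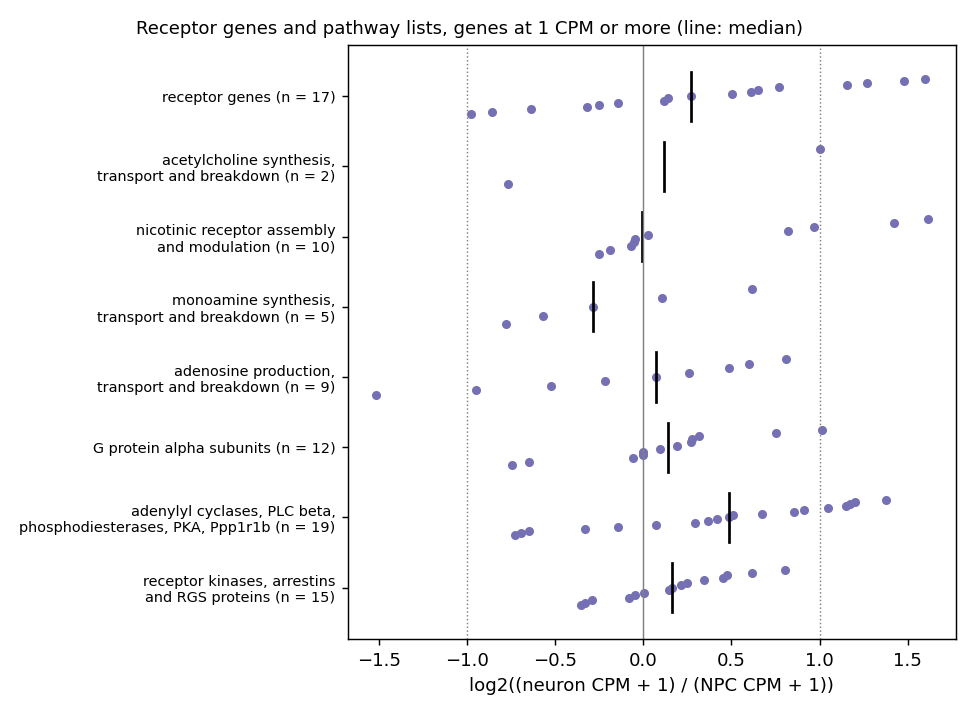
Log2 ratio of neuron to NPC level with 1 CPM added (horizontal axis) for receptor genes and the 7 pathway lists, each point a gene at 1 CPM or more in a library. Black lines are medians, 0.27 for the receptor genes and 0.49 for the effector list, and dotted lines mark 2-fold.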

How the data were processed

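Per the submitters' processing notes, CASAVA 1.9, TopHat 1.2.0, SAMtools 0.1.18, edgeR and the mouse build mm9 were used, with no role or order given. Per the labels' protocols, total RNA was extracted with TRIzol and libraries were made with an Illumina RNA-seq kit. The deposited values are a signal per gene symbol in whole multiples of a step, 0.952727 (NPC) and 1.12797 (neuron). Division by the step gave whole reads within 0.05 for 100% of values in each library. Both libraries were then divided by one constant, 25698104, and multiplied by 1000000 (CPM), which keeps the deposited scaling. A count test across genes was not run, since 1 library a group leaves no residual degrees of freedom.

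Intervals are exact Clopper-Pearson intervals of the share of reads (95%). Exon lengths and overlaps come from GENCODE M21 (GRCm38), which may differ from the annotation the authors used, and no coordinates were moved between builds. The calculations were tested on simulated data. Python 3.11.15, scipy 1.17.1, R 4.3.3 and edgeR 4.0.16 (for TMM factors) were used.

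The receptor genes and the 7 pathway and 14 marker lists (203 genes, all found, 1 under another symbol) were chosen with earlier results of these data known. All receptor genes may be named, and 1 is counted but not reported here by name. Of each pathway list the most abundant gene and up to 3 with the largest log2 ratio past the filter are named. Of the marker lists some of the most abundant genes and those at 0 are named. Myod1, Ttr, Tac1, Ebf1, Chat and the overlapping genes Adar and Mybph were chosen after their values were seen. Alternatives varied the added value, the filter and the scaling.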

Additional observations from a re-analysis of the deposited data

How the results depend on the processing

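With 0.5 CPM added in place of 1, 2 receptor genes passed 2-fold towards NPCs in place of 0, and with scaling by total reads 1 did. With 5 CPM added, 2 receptor genes passed 2-fold towards neurons in place of 4, and over all genes 238 (neurons) and 399 (NPCs) in place of 489 and 854. The median log2 ratio of the receptor genes was 0.13 with a filter of 0.5 CPM, 1.21 with 5 CPM, where 6 genes were left, and 0.0095 with no filter, where 57 genes entered. It was 0.14 without Chrnb2 and Adora1, an alternative chosen after seeing the data, with 3 genes at least 2-fold higher in neurons. The other alternatives (TMM and upper quartile scaling among them) left these counts within 1.5 times and the median within 0.1. Under the 3 scalings none of the 17 genes at 1 CPM or more changed direction. No paired analysis was possible because there is 1 library a group. Depth limits the 27 genes with fewer than 10 reads, for which 2-fold differences could not be resolved.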
